A study of Mus musculus with 47 samples.

Results

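B78-D14 melanoma tumors that carried the mitochondrial DNA (mtDNA) mutation m.12,436G>A at a heteroplasmy of 60% were compared with tumors that carried it at 40%. Heteroplasmy is the share of a cell's mtDNA copies with a mutation. The 14 tumors compared, 7 with the label 60% and 7 with the label 40%, were taken by their sample labels from the 47 samples of the series. B78 is an amelanotic mouse melanoma line derived from B16, with a deletion of Cdkn2a that all groups share. The mutation was made with DdCBE, a base editor whose split deaminase, targeted to mitochondria, converts C to T in double-stranded DNA, and each level is a transfected and sorted cell population that went through 1 or several rounds of editing, so that the heteroplasmy level and the history of the line cannot be told apart. Cells were injected subcutaneously into untreated young adult male C57BL/6 mice, 1 tumor is 1 animal, and fragments taken at the tumor-size endpoint were kept in RNAlater and sequenced in bulk. Beside them stand 4 control tumors of the same line, n=001 to 004, grown in the same way, and 4 cultures of the control cells. The counts hold no base calls, so the heteroplasmy of these fragments was not read.

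*Mt-Nd5* encodes ND5, a membrane subunit of complex I of the respiratory chain, which takes electrons from NADH, passes them to ubiquinone and pumps protons. In cells that mix mutant and normal mtDNA, a defect of a mitochondrial protein usually becomes visible only above some share of mutant copies, so that levels of heteroplasmy are compared as doses. A subcutaneous B78 tumor contains macrophages, T and NK cells, vessels, fibroblasts and pieces of surrounding muscle and fat besides melanoma cells. In bulk RNA, fewer cells of a type and less RNA per cell cannot be told apart.

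The edited base lies in *mt-Nd5* (ENSMUSG00000064367), an intronless protein-coding gene on the + strand (chrM:11742-13565 in GRCm39). G12436A, counted from position 1 of the chromosome, changes position 2 of codon 232 (12435 to 12437) from TGA, tryptophan in the vertebrate mitochondrial code, to TAA, a stop, after 38.0% of the gene's 608 codons. On the opposite strand the deaminated C follows a T, the TC context. The 43 bases from 12415 to 12457 are shown because they hold the only designed difference between edited and unedited mtDNA, with the codon in capitals.
reference: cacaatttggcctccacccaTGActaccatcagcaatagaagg
edited: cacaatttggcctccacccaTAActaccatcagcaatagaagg

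The level of the edited gene itself did not separate the groups. In the 60% tumors *mt-Nd5* was at 1276, 1248, 990, 988, 1295, 985 and 1125 CPM (counts scaled to a common library size by TMM) in tumors 1 to 7, and in the 40% tumors at 1118, 789, 1086, 1199, 1238, 1091 and 1092 CPM. The ranges overlapped throughout, 40% tumor 2 was the lowest of the 14, and the 4 control tumors lay between 854 and 1231 CPM. The group means were 1130 ± 143 CPM (SD, n = 7) and 1088 ± 144 CPM (SD, n = 7). The log2 fold change of 60% over 40% tumors was 0.05 (standard error 0.10, adjusted p = 0.866, edgeR). The difference in mean log2 CPM had p = 0.627 in a two-sided exact permutation test, whose smallest possible p with 7 tumors a group is 0.000583. Taken as a share of the counts on the 13 mtDNA-encoded mRNAs, the difference was 0.03 on the log2 scale (exact permutation p = 0.429). Without 40% tumor 2 the difference in mean log2 CPM turned to −0.02. The 13 mtDNA-encoded mRNAs held no call at the threshold given below, with a median log2 fold change of 0.03, and together they took 0.919% to 1.44% of all counts per tumor.

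Between 19264505 and 29707338 reads were counted on genes per 60% tumor, between 16475735 and 28992149 per 40% tumor and between 21848594 and 31218475 per control tumor, and no 2 of these 18 libraries agreed within sampling noise. The SD within a group was for most genes smaller in 60% tumors, a comparison that includes 40% tumor 2 and is not given without it. Over 12324 genes with a mean of at least 1 log2 CPM, the median SD of log2 CPM was 0.120 in 60% tumors and 0.165 in 40% tumors, and the SD was larger in 60% tumors for 28.1% of these genes. The tumor that stood farthest from its group was 40% tumor 2, in which 474 genes differed by more than 1 log2 unit from the median of the other 6. Among the rest this number ran from 72 to 157 in 40% tumors and from 57 to 281 in 60% tumors. It was 279 in 60% tumor 5 and 281 in 60% tumor 6, above every 40% tumor except the second. Without 40% tumor 2, 243 genes passed the threshold given below, 99 higher and 144 lower.

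Of 16213 genes with enough counts, 293 (1.81%) differed between 60% and 40% tumors at an adjusted p under 0.1 in edgeR's quasi-likelihood test with Benjamini-Hochberg adjustment, the threshold used throughout. The level in 60% tumors was higher for 132 genes (0.814%) and lower for 161 genes (0.993%), and 2285 genes (14.1%) had an unadjusted p under 0.05. Most changes were small. The median size was 0.54 on the log2 scale among higher genes and 0.50 among lower genes, and 15 and 38 genes changed by more than 1. For 38 of the higher and 48 of the lower genes, every 60% tumor lay on 1 side of every 40% tumor, as was so for 101 of all genes tested (0.623%). Against the control tumors, the 132 higher genes had a median difference of 0.47 in 60% tumors and −0.03 in 40% tumors, and the 161 lower genes −0.40 and 0.03. These contrasts share the 60% or the 40% tumors with the comparison that chose the genes and are given as a description.

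**Figure D1:**
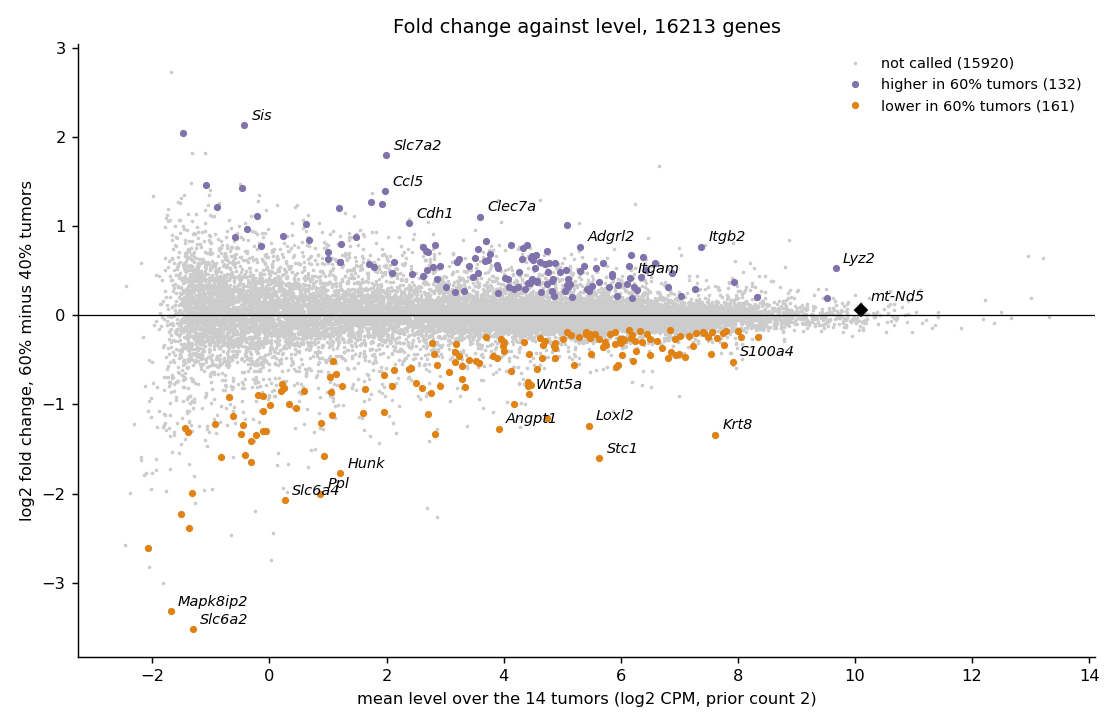
Log2 fold change of 60% over 40% tumors (y axis) against the mean level over the 14 tumors (x axis, log2 CPM with a prior count of 2) for 16213 genes, with the 132 higher and 161 lower genes in color and mt-Nd5 as a diamond. Most called genes changed by less than 1 log2 unit and mt-Nd5 sits near 0; the labels of Sis, Clec7a, Ppl, Mapk8ip2, Slc6a2 and Slc6a4 were chosen after their values were seen.

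Several of the rises with the smallest p were in genes of myeloid cells. *Itgam*, the integrin alpha M chain (CD11b) of macrophages, monocytes and neutrophils, was at 73.2, 82.7 and 91.3 CPM (lowest, median and highest tumor) in 60% tumors and at 53.9, 61.8 and 70.0 CPM in 40% tumors. Every 60% tumor was above every 40% tumor, and the control tumors lay at 55.6 to 69.2 CPM (log2 fold change 0.42, standard error 0.07, adjusted p = 0.00611). *Itgb2*, the beta-2 chain (CD18) that pairs with it on leukocytes, was at 179, 216 and 250 CPM against 95.7, 129 and 156 CPM. The groups did not overlap, and 1 control tumor, at 200 CPM, reached into the range of the 60% tumors (log2 fold change 0.77, standard error 0.13, adjusted p = 0.0110). *Fgr*, a Src-family kinase of myeloid cells, rose from 17.3 to 26.0 CPM in 40% tumors to 29.0 to 46.9 CPM in 60% tumors, again without overlap (log2 fold change 0.72, adjusted p = 0.0140). *Stx11*, a syntaxin of leukocyte granule release, rose from 12.9 to 24.996 CPM to 25.4 to 30.3 CPM (log2 fold change 0.67, adjusted p = 0.00611). Unlike *Itgam* and *Fgr*, which were at 0 in cultured control cells, *Stx11* was at 6.48 to 14.35 CPM there. *Alox5ap*, which delivers arachidonic acid to 5-lipoxygenase for leukotriene synthesis, had a log2 fold change of 0.43 (adjusted p = 0.0140). Its groups met in 40% tumor 7, at 86.4 CPM, with the other 40% tumors at 61.9 to 70.2 CPM and the 60% tumors at 83.0 to 107 CPM. *P2ry10b*, a G protein-coupled receptor of leukocytes, rose from 1.26 to 2.73 CPM to 2.83 to 4.52 CPM (log2 fold change 0.88, adjusted p = 0.0407), and its call was lost without 60% tumor 1 (adjusted p = 0.102).

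A pair of genes for the uptake and use of arginine rose. *Slc7a2*, the cationic amino acid transporter CAT2 that macrophages induce, was at 3.72, 7.69 and 15.5 CPM in 60% tumors and at 1.07, 2.13 and 3.24 CPM in 40% tumors. The highest 40% tumor was below the lowest 60% tumor and the control tumors were at 1.19 to 2.80 CPM, and among called genes without overlap and with a mean of at least 1 log2 CPM this was the largest rise (log2 fold change 1.79, standard error 0.29, adjusted p = 0.00744). *Ass1*, argininosuccinate synthase, which makes the precursor of arginine from citrulline and aspartate, was at 96.2, 116 and 144 CPM against 66.0, 72.9 and 110 CPM, with an overlap between the groups (log2 fold change 0.58, adjusted p = 0.0181). *Arg1*, arginase of macrophages, looked at after these, was at 73.1 to 175 CPM against 22.5 to 79.8 CPM and missed the threshold (log2 fold change 1.24, standard error 0.34, adjusted p = 0.108). The list of 23 amino acid transporters and genes of arginine use had no other call, and its median log2 fold change was −0.09, beside −0.0036 for all genes tested.

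Further higher genes had varied known roles. *Adgrl2*, the adhesion receptor latrophilin 2, had the smallest p of the higher genes, at 41.2, 55.0 and 61.3 CPM in 60% tumors and 24.7, 30.1 and 36.7 CPM in 40% tumors, with control tumors between 31.9 and 40.0 CPM (log2 fold change 0.77, standard error 0.10, adjusted p = 0.00102). *Antxr1*, a collagen-binding receptor of vessels and stroma, was at 59.6 to 70.7 CPM against 34.3 to 54.8 CPM (log2 fold change 0.59, adjusted p = 0.00446), and *Pmepa1*, a feedback inhibitor of TGF-beta signaling, at 80.6 to 102 CPM against 41.4 to 74.8 CPM (log2 fold change 0.67, adjusted p = 0.00901). *Pdgfb*, the ligand that recruits pericytes to vessels, was at 43.3, 48.6 and 56.3 CPM against 23.5, 35.3 and 40.4 CPM (log2 fold change 0.56, adjusted p = 0.0157). None of these overlapped between the groups. *Retreg1*, a receptor for autophagy of the endoplasmic reticulum, rose by 0.31 on the log2 scale, and *Lrig3*, a transmembrane regulator of growth factor receptors, by 0.63 with overlap (9.60 to 14.9 CPM against 5.49 to 9.70 CPM). *Lbx1*, a homeobox factor of developing muscle and dorsal spinal cord, rose from a median of 1.52 CPM to 3.53 CPM (log2 fold change 1.20, adjusted p = 0.0180). Among 13 epithelial genes and simple keratins, *Cdh1*, E-cadherin, was at 5.13, 7.61 and 10.3 CPM against 2.08, 3.58 and 4.77 CPM without overlap (log2 fold change 1.03, adjusted p = 0.0218), and *Krt80*, an epithelial keratin, rose by 0.55 with overlap (adjusted p = 0.0182).

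**Figure D2:**
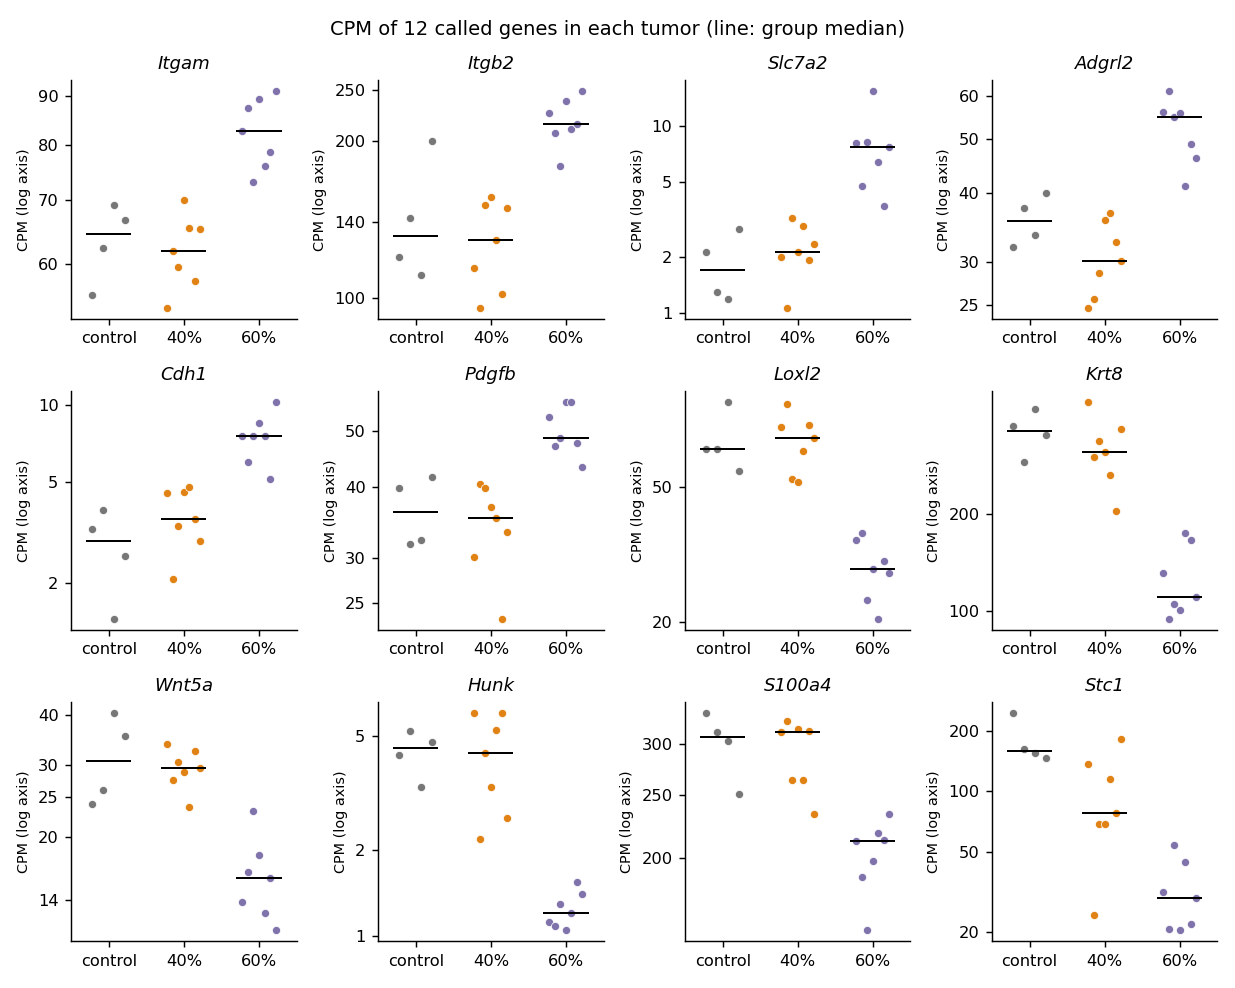
CPM (y axis, log scale) of 12 called genes in each control, 40% and 60% tumor, with 1 point for each tumor and a line at the group median. The 60% tumors lie apart from the 40% tumors in each panel except Stc1, and in the panels of Slc7a2, Loxl2, Hunk and Krt8 the control tumors fall in or near the range of the 40% tumors.

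The falls with the smallest p were of a lysyl oxidase, a kinase and a keratin. *Loxl2*, a secreted enzyme that cross-links collagen and elastin, was at 20.5, 28.7 and 36.7 CPM in 60% tumors and at 51.7, 70.1 and 87.9 CPM in 40% tumors. The groups were far apart and the control tumors, at 55.7 to 89.4 CPM, lay in the range of the 40% tumors (log2 fold change −1.24, standard error 0.14, adjusted p = 8.45e-04). It lies at chr14:69846209-69933283 in GRCm39. *Hunk*, a kinase related to AMPK, at chr16:90182901-90296443, was at 1.05, 1.21 and 1.55 CPM against 2.18, 4.38 and 6.04 CPM, with 3.32 to 5.20 CPM in control tumors (log2 fold change −1.77, standard error 0.22, adjusted p = 8.45e-04). *Krt8*, keratin 8 of simple epithelia and of some melanomas, was at 94.3, 110 and 174 CPM against 204, 311 and 445 CPM, with control tumors at 289 to 424 CPM (log2 fold change −1.34, standard error 0.17, adjusted p = 0.00132). Its pseudogene *Krt8-ps* fell as well (log2 fold change −1.07, adjusted p = 0.0157). The pseudogene shares sequence with the gene, so the split of reads between them is uncertain. *Krt18*, the keratin that pairs with keratin 8, was looked at after these and missed the threshold, at 244, 265 and 310 CPM against 177, 309 and 432 CPM (log2 fold change −0.19, adjusted p = 0.585).

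Other falls without overlap between the groups included regulators and cytoskeletal genes. *Fam13c* was at 3.60 to 5.42 CPM in 60% and 6.74 to 17.5 CPM in 40% tumors (log2 fold change −1.33), *Tmem121*, a membrane protein, at 1.89 to 3.58 CPM against 4.04 to 7.51 CPM (−1.08), and *Lmo1*, a LIM-only cofactor of transcription, at 13.8 to 21.0 CPM against 25.4 to 36.0 CPM (−0.79), each with an adjusted p of 0.00195. *C1qtnf12*, a secreted C1q/TNF-related protein, fell by 0.79 on the log2 scale with the same adjusted p, and *Ctxnd1* fell by 0.58 (adjusted p = 0.00446). *Pls3*, an actin-bundling plastin, was at 126, 135 and 139 CPM against 153, 170 and 186 CPM (log2 fold change −0.34, adjusted p = 0.00734). *S100a4*, a calcium-binding protein used as a mesenchymal marker, was at 154, 212 and 233 CPM against 234, 313 and 326 CPM (log2 fold change −0.52, adjusted p = 0.0110), so that the highest 60% and the lowest 40% tumor nearly met. It was the only one of 16 mesenchymal genes past the threshold, and the median of that list was −0.03. *Angpt1*, the ligand of the endothelial receptor TIE2, was at 7.24, 9.67 and 12.9 CPM against 14.7, 22.2 and 38.6 CPM (log2 fold change −1.27, adjusted p = 0.0182). *Tek*, which encodes that receptor, missed the threshold (log2 fold change −0.42, adjusted p = 0.293), and the 14 endothelial markers held no call, with a median of −0.06. *Prdm6*, a zinc finger regulator, fell by 0.56 without overlap, and *Pcdhgb6*, a clustered protocadherin whose transcripts share exons with neighbours, by 0.87 with overlap (adjusted p = 0.00901 for both). *Slc6a2*, the noradrenaline transporter, singled out after its values were seen, had the largest fold change of all called genes at very low levels, 0 to 0.245 CPM in 60% and 0.145 to 1.79 CPM in 40% tumors (log2 fold change −3.52, standard error 0.56, adjusted p = 0.00611).

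The non-canonical Wnt ligands *Wnt5a* and *Wnt5b* fell. *Wnt5a*, which signals through ROR receptors in cell movement and is linked to invasive melanoma states, was at 11.8, 15.8 and 23.1 CPM in 60% tumors and 23.6, 29.6 and 33.9 CPM in 40% tumors, with control tumors at 24.04 to 40.4 CPM. The highest 60% tumor stopped just below the lowest 40% tumor (log2 fold change −0.89, standard error 0.14, adjusted p = 0.00611). *Wnt5b*, its closest relative, was at 0.157 to 0.806 CPM against 0.948 to 1.79 CPM, without overlap (log2 fold change −1.41, adjusted p = 0.0160). *Notum*, a secreted inhibitor that removes the lipid of Wnt proteins, fell by 1.04 with overlap (adjusted p = 0.0563). In the other direction *Fzd7*, a Wnt receptor, was at 17.6 to 22.1 CPM against 10.3 to 16.8 CPM (log2 fold change 0.40, adjusted p = 0.0625). Of 28 Wnt ligands, receptors, antagonists and targets tested, these 1 higher and 3 lower genes passed the threshold, and the median of the list was −0.08.

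*Stc1*, a secreted glycoprotein induced by hypoxia, fell over a wide range of levels. It was at 20.5, 29.4 and 54.0 CPM in 60% tumors, at 24.3, 77.8 and 183 CPM in 40% tumors and at 146 to 245 CPM in control tumors (log2 fold change −1.60, standard error 0.35, adjusted p = 0.0470). The lowest 40% tumor, at 24.3 CPM, lay among the 60% tumors, and the other 40% tumors were above all of them. Its call was lost without 60% tumor 1, 2 or 4 or 40% tumor 1, with fold changes from −1.60 to −1.504 and an adjusted p of up to 0.106. The other 17 of 18 hypoxia targets tested did not pass, 14 of the list were above 0 and its median was 0.15. *Stc2*, a paralog of *Stc1* in the same list, had a log2 fold change of −0.63 (adjusted p = 0.348). Among collagens and lysyl oxidases, 2 of 26 genes fell, *Loxl2* and *Loxl3*, and the list's median was 0.01. *Loxl3*, a relative of *Loxl2*, was at 76.2 to 97.9 CPM against 83.9 to 127 CPM (log2 fold change −0.28, adjusted p = 0.0892). That call was lost without control tumor 1, 3 or 4, without any 60% tumor except the third and without any 40% tumor except the second and the seventh, at an adjusted p of up to 0.178. *Snai2*, the neural crest factor Slug, was the only call among 14 dedifferentiation and neural crest genes (log2 fold change −0.30, adjusted p = 0.0892, list median −0.02). It was lost without control tumor 1, without any 60% tumor except the fifth and without any 40% tumor except the fifth and the seventh, at an adjusted p of up to 0.176. Of 17 melanocyte lineage and pigment genes only 8 had enough counts, and none of the 8 passed (median 0.12). The defining pigment genes *Tyr*, *Tyrp1*, *Dct* and *Mlana* and the lineage factor *Sox10* had too few counts to be tested. *Mitf*, the master regulator of pigment genes, was at 20.3 to 27.3 CPM against 14.9 to 27.2 CPM (log2 fold change 0.24, adjusted p = 0.381).

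Markers of leukocytes lay higher in 60% tumors, but few of them passed the threshold singly. Among 12 pan-leukocyte markers all 12 fold changes were above 0, with a median of 0.31, and 1, *Itgb2*, passed. *Ptprc*, the phosphatase CD45 of all leukocytes, was at 81.3, 110 and 154 CPM in 60% tumors and 55.3, 80.5 and 103 CPM in 40% tumors (log2 fold change 0.49, standard error 0.16, adjusted p = 0.169). The summed level of the 12 markers was 996, 1257 and 1545 CPM in 60% tumors, 839, 960 and 1062 CPM in 40% tumors and 802 to 1109 CPM in control tumors, and 5 of 7 60% tumors were above all 40% tumors. In the cultured cells it was 60.6 to 85.0 CPM. Of 16 macrophage markers, 3 passed, *Lyz2* and *Msr1* among them, and the median was 0.22. *Lyz2*, lysozyme, was at 740, 1064 and 1242 CPM against 499, 717 and 834 CPM (log2 fold change 0.52, adjusted p = 0.0744). *Msr1*, a scavenger receptor, was at 70.8 to 85.0 CPM against 54.2 to 72.2 CPM (log2 fold change 0.35, adjusted p = 0.0908). Without 40% tumor 2 all 3 macrophage calls were lost. That of *Lyz2* was also lost without 60% tumor 1, 2, 4, 6 or 7 or 40% tumor 1, 3 or 6 and that of *Msr1* without 60% tumor 1, 2, 4, 6 or 7 or 40% tumor 3, 5 or 6, at adjusted p of up to 0.152 and 0.169. The 13 neutrophil and monocyte markers had a median of 0.02 and no call, *S100a9*, a neutrophil protein, being at 1.96 to 7.65 CPM against 1.83 to 11.9 CPM (log2 fold change −0.26, adjusted p = 0.848), and *Chil3*, a lectin of myeloid cells, at 1.25 to 3.17 CPM against 1.32 to 3.83 CPM (0.09, adjusted p = 0.926).

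T and NK cell markers had the highest median of the 40 lists, 0.82 over 21 genes that were all above 0. None passed the threshold in edgeR or limma-voom, 8 had an unadjusted p under 0.05, and DESeq2 called 2, *Cd8a* and *Nkg7*. *Cd8a*, of cytotoxic T cells, was at 1.65, 6.88 and 12.5 CPM against 0.747, 2.06 and 5.22 CPM (log2 fold change 1.37, standard error 0.45, adjusted p = 0.164). The 60% tumors were split. The summed level of the list was 140, 136 and 177 CPM in 60% tumors 1, 4 and 7, above the highest 40% tumor at 80.4 CPM. In 60% tumors 2 and 3 it was 85.2 and 83.2 CPM, just above that tumor. In 60% tumors 5 and 6, at 38.5 and 38.2 CPM, it lay near the lowest 40% tumor at 34.5 CPM. Dendritic cell markers had a median of 0.09 over 11 genes and B and plasma cell markers of 0.23 over 4 genes, with no call in either list.

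Genes of the interferon response followed a similar split. All 16 interferon-gamma-inducible GTPases (guanylate-binding proteins and immunity-related GTPases, which act against intracellular microbes) were above 0, with a median of 0.73 and no call in edgeR, limma-voom or DESeq2, and 4 had an unadjusted p under 0.05. Their sum was 954, 986 and 999 CPM in 60% tumors 1, 4 and 7, beside 211 to 693 CPM in 40% tumors. It was 560 and 574 CPM in 60% tumors 2 and 3 and 390 and 284 CPM in 60% tumors 5 and 6, all within that range. *Gbp2* was at 61.5, 108 and 206 CPM against 33.2, 63.2 and 112 CPM (log2 fold change 0.87, standard error 0.35, adjusted p = 0.263). The 40 type I interferon-stimulated genes were all above 0, with a median of 0.28 and 1 call. That gene was *Zbp1*, a sensor of Z-form nucleic acids, at 28.3, 56.6 and 66.5 CPM against 12.7, 24.7 and 39.5 CPM, where 6 of 7 60% tumors were above all 40% tumors (log2 fold change 1.01, standard error 0.26, adjusted p = 0.0800). Its call was lost without control tumor 1, without any 60% tumor except the fifth and the sixth and without any 40% tumor except the third and the fourth, at an adjusted p of up to 0.157.

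Antigen presentation and immune signaling lists lay above 0 with few calls. The 18 genes of MHC class I presentation were all above 0 (median 0.31) and 11 of 12 genes of MHC class II presentation were (median 0.69), with no call in either. *Tapbp*, which loads peptides on class I molecules, had a log2 fold change of 0.39 (adjusted p = 0.135), and *Cd74*, the class II invariant chain, was at 274, 649 and 1142 CPM against 131, 431 and 746 CPM (log2 fold change 0.84, standard error 0.44, adjusted p = 0.413). Of 17 checkpoint ligands and receptors none passed (median 0.30). *Cd274*, which encodes PD-L1, a ligand that restrains T cells, was at 11.1, 22.96 and 29.9 CPM against 5.96, 13.8 and 15.6 CPM (log2 fold change 0.78, standard error 0.22, adjusted p = 0.114). Among 27 chemokines the median was 0.28 and *Ccl5*, which attracts T cells and monocytes, passed, at 2.41, 6.61 and 11.0 CPM against 1.16, 1.90 and 4.27 CPM (log2 fold change 1.39, standard error 0.37, adjusted p = 0.0926). Its call was lost without control tumor 1 or 4, 60% tumor 1, 2, 4 or 7 or 40% tumor 1, 2, 5 or 6, at an adjusted p of up to 0.183. The 22 NF-kB targets had no call (median 0.14). Of 22 immediate early genes *Dusp2*, a phosphatase that ends MAPK signals, passed with a log2 fold change of 0.27 (adjusted p = 0.0991, list median 0.04), a call lost without control tumor 1 or 4, any of the 60% tumors or 40% tumor 1, 2, 4, 6 or 7, at an adjusted p of up to 0.197.

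Most of the calls were lost when the level of leukocyte markers was added to the fit as a covariate. Of the 132 higher genes 64 (48.5%) were below 0.5 CPM in cultured control cells, as were 25 of the 161 lower genes (15.5%) and 24.5% of all genes tested. With the mean of the pan-leukocyte markers as a covariate, 71 genes passed, 32 higher and 39 lower. Of the 293 calls without the covariate, 32 in either direction were kept and 261 were lost, so the 71 include genes not called before. Of the 12 higher genes with the smallest p, 4 still passed, namely *Adgrl2* (log2 fold change 0.63, adjusted p = 0.0313), *Antxr1* (0.56, 0.0540), *Pmepa1* (0.70, 0.0717) and *Stx11* (0.55, 0.0983), and 8 did not. Among these 8 the fold change became smaller for *Fgr* (0.36, 0.156), *Alox5ap* (0.30, 0.187), *Itgam* (0.29, 0.123), *Slc7a2* (1.44, 0.130) and *Itgb2* (0.58, 0.141), which is itself 1 of the markers in the covariate. It stayed near its value without the covariate for *Pdgfb* (0.56, 0.101), *Retreg1* (0.31, 0.104) and *Lrig3* (0.60, 0.122). Of the 12 lower genes with the smallest p, 10 still passed, among them *Loxl2* (−1.26, 0.0269), *Krt8* (−1.06, 0.0277) and *Hunk* (−1.59, 0.0288), while *Wnt5a* (−0.69, 0.130) and *Pls3* (−0.27, 0.138) did not. These 12 were picked by p and do not stand for all 161 lower genes, most of which did not pass. In that fit the medians of the T and NK cell markers and of the interferon-gamma-inducible GTPases turned to −0.59 and −0.40. These are estimates of a fit with the covariate and not ratios of the lists' levels to the level of the pan-leukocyte markers.

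**Figure D3:**
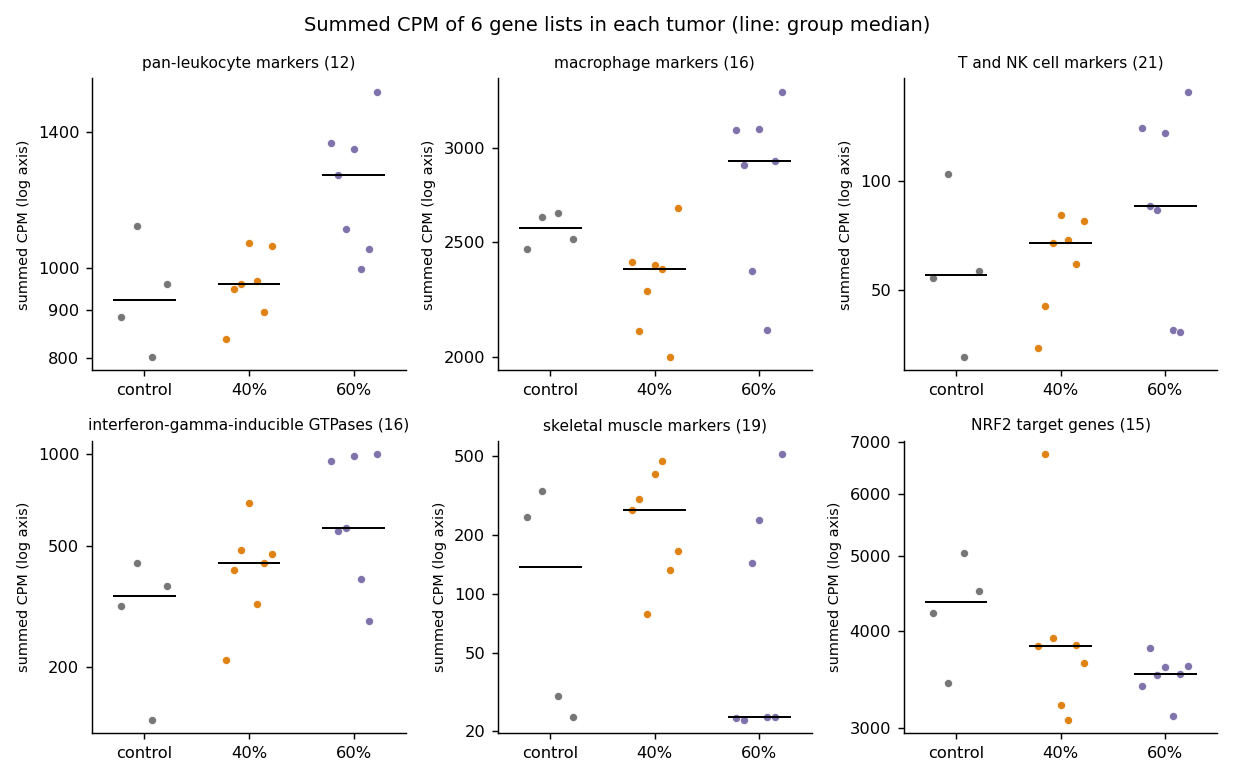
Summed CPM (y axis, log scale) of 6 gene lists in each control, 40% and 60% tumor, with 1 point for each tumor, a line at the group median and the number of genes in brackets. The T and NK cell and GTPase sums split the 60% tumors, the muscle sum is low in 4 of the 60% tumors and 2 of the control tumors, and 40% tumor 2 is highest for NRF2 targets.

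Muscle tissue differed between the fragments. All 19 skeletal muscle markers were below 0, with a median of −0.77 and no call. Their sum was 22.9 to 23.7 CPM in 60% tumors 1, 2, 5 and 6, the range of cultured cells (17.2 to 32.9 CPM), and 144, 236 and 511 CPM in 60% tumors 3, 4 and 7, beside 78.5 to 471 CPM in 40% tumors. Control tumors 3 and 4, at 30.4 and 23.7 CPM, were in that range as well, and control tumors 1 and 2 were at 245 and 332 CPM. With the mean of the muscle markers as a covariate, a setting chosen after seeing the data, 362 genes passed, 229 higher and 133 lower. Of the 293 calls without this covariate, 185 were kept and 108 were lost. Calls among pan-leukocyte markers went from 1 to 7 and among T and NK cell markers from 0 to 4. The 5 adipocyte markers tested had a median of 0.70 and the 5 erythroid markers of −0.75, fibroblast and pericyte markers of −0.06 over 14 genes, and 2 keratinocyte markers of 0.09, with no call in these lists.

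Genes of respiration moved little. The 36 nuclear-encoded complex I subunits had a median log2 fold change of −0.06, with 29 below 0, and the 36 subunits of complexes II to V of −0.08, with 27 below 0. The 24 genes of glycolysis and lactate handling had a median of 0.06, with 16 above 0, as were 48.9% of all genes tested. None of these lists held a call. *Ndufb8*, a complex I subunit that is unstable when the complex is not assembled, was at 47.7, 55.6 and 61.1 CPM in 60% tumors and 49.2, 60.2 and 65.9 CPM in 40% tumors (log2 fold change −0.12, standard error 0.07, adjusted p = 0.490). *Slc16a3*, the lactate exporter MCT4, was at 50.0, 60.5 and 89.6 CPM against 38.4, 40.1 and 75.8 CPM (log2 fold change 0.56, standard error 0.19, adjusted p = 0.184). Of 23 genes of the TCA cycle and of the shuttles that carry reducing equivalents into mitochondria, *Got2* passed and the median was −0.08. In that list 21 genes were below 0 and 6 had an unadjusted p under 0.05. *Got2*, the mitochondrial aspartate aminotransferase of the malate-aspartate shuttle, was at 173, 184 and 195 CPM against 191, 215 and 261 CPM (log2 fold change −0.25, standard error 0.06, adjusted p = 0.0744). Its call was lost without 60% tumor 1, 2 or 4 or 40% tumor 1, 2 or 6, at an adjusted p of up to 0.157. *Mdh1*, the cytosolic malate dehydrogenase of that shuttle, was at 102 to 122 CPM against 109 to 124 CPM (log2 fold change −0.04, adjusted p = 0.802). Besides the hypoxia targets, the stress-response lists held no call. The 19 genes of the integrated stress response and serine synthesis had a median of −0.06, with 11 below 0. The 13 p53 targets had a median of −0.19, all 13 were below 0 and 7 had an unadjusted p under 0.05. The 15 NRF2 targets had a median of −0.29, which was −0.03 without 40% tumor 2, so that this tumor carried that difference. *Hmox1*, the haem-degrading enzyme that NRF2 induces, was at 65.4, 99.8 and 179 CPM against 43.6, 99.1 and 137 CPM (log2 fold change 0.13, adjusted p = 0.924). The 22 cholesterol synthesis genes went from −0.13 with no call to 0.10 with 2 higher calls, *Insig1* and *Pmvk*, without 40% tumor 2.

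Genes of cell division lay slightly lower. All 26 mitosis genes were below 0, with a median of −0.21 and 1 call, and 14 of them had an unadjusted p under 0.05. Of 33 DNA replication genes 29 were below 0 (median −0.12, no call). The summed levels of the mitosis and the replication list were the highest of the 14 in 40% tumor 2, at 2772 and 2950 CPM. Division genes outside these lists were also called lower. Looked at after their values were seen, *Ckap2*, *Knstrn* and *Cep55* fell without overlap (log2 fold change −0.34, −0.30 and −0.31). Such genes were not counted as a set. *Cenpa*, the histone H3 variant of centromeres, was at 49.0, 57.5 and 63.7 CPM against 61.5, 69.6 and 77.0 CPM (log2 fold change −0.27, standard error 0.07, adjusted p = 0.0648), and its call was lost without 60% tumor 1 or 4 or 40% tumor 1 or 6, at an adjusted p of up to 0.119. *Birc5*, survivin, which acts at centromeres in mitosis, was at 46.6 to 57.3 CPM against 51.6 to 82.7 CPM (log2 fold change −0.22, adjusted p = 0.321). The 17 MAPK feedback and target genes had a median of −0.13 and no call. *Cdkn2a*, which the line lacks, was not tested, with 3 to 11 counts per 60% tumor, 2 to 8 per 40% tumor and 6 to 18 per control tumor.

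Of the 40 lists, 26 held no call in edgeR's test. In these, 68 of the 429 genes tested had an unadjusted p under 0.05, beside 2285 of all 16213 genes tested (14.1%). In these lists limma-voom called 0 genes as well. DESeq2, which called 744 of all 16213 genes, called 18 of the 429, in 11 lists. Among them were *Cdkn1a* and *Ccng1* of the p53 targets and *Cd274* and *Vsir* of the checkpoint genes.

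**Figure D4:**
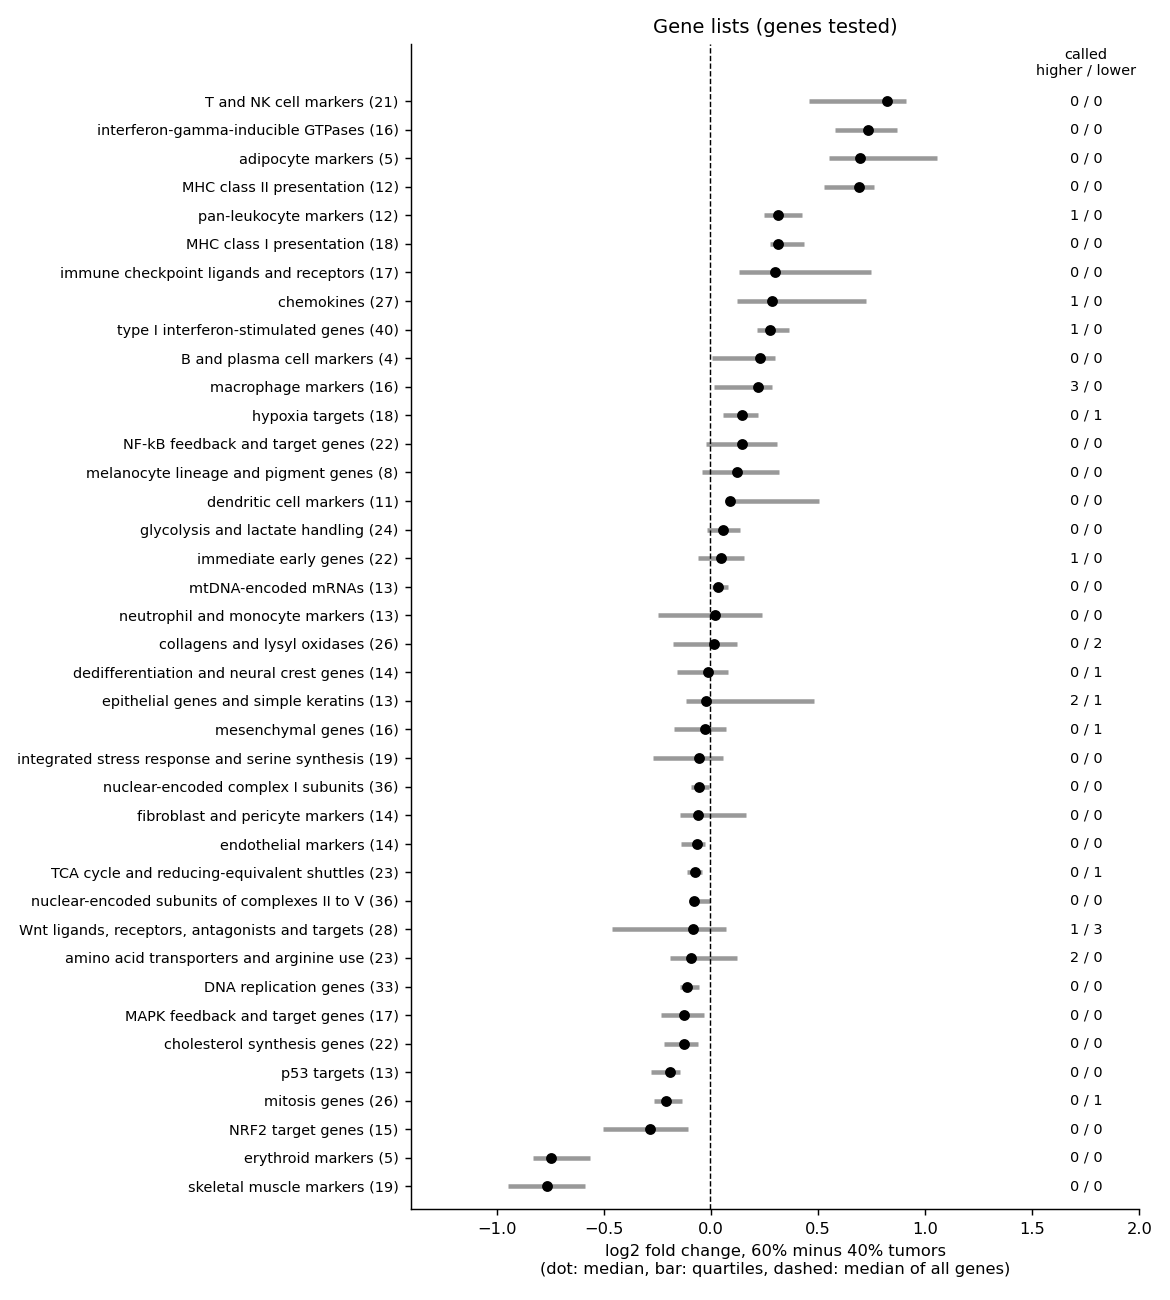
Median (dot) and quartiles (bar) of the log2 fold change of 60% over 40% tumors (x axis) for each gene list with at least 4 genes tested, with the number of genes in brackets, the number called higher and lower at the right and a dashed line at the median of all genes. T and NK cell markers, GTPases, adipocyte markers and MHC class II genes lie highest and skeletal muscle and erythroid markers lowest, with no call in any of these 6 lists.

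The lower genes were unevenly spread over the chromosomes. On chromosome 16, 20 of 500 genes tested (4.0%) were called lower and 2 higher, beside 0.993% lower and 0.814% higher of all genes. The median log2 fold change on that chromosome was −0.07, 347 of 500 genes (69.4%) were below 0, and in all 8 windows of 10 Mb with at least 20 genes the median was below 0, from −0.13 to −0.02. *Hunk* and *Snai2* are among these genes. The shift was small in single tumors, where the median of 380 genes relative to the control tumors was −0.07 to 0.02 in 60% tumors and −0.08 to 0.16 in 40% tumors, so the groups overlapped. On chromosome 8, 18 of 860 genes (2.09%) were called lower, and 14 of the 18 lay between 80 and 100 Mb, *Got2* and *Slc6a2* among them. In that stretch, chosen after seeing the data, the median of 130 genes relative to the control tumors was −0.19 to −0.10 in 60% tumors and −0.16 to 0.10 in 40% tumors. Over the rest of the chromosome the middle tumor of both groups was at −0.07. DNA copy number was not measured in these samples and its part was not tested.

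**Figure D5:**
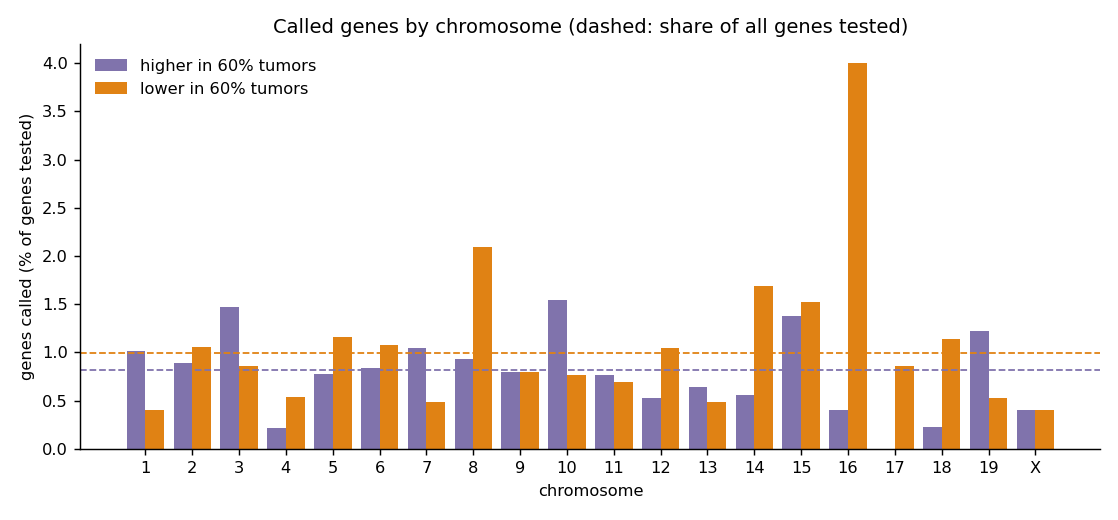
Share of the genes tested on each chromosome (y axis, percent) that were called higher or lower in 60% tumors, with dashed lines at the shares over all chromosomes. Chromosome 16 has the highest share of lower genes, 4.0%, followed by chromosome 8 with 2.09%.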

How the data were processed

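RNA of 14 tumors, 4 control tumors and 4 cultures of control cells was compared. The authors used STAR to align reads to GRCm39 and featureCounts to count them on genes, and deposited raw counts for 56748 genes in 47 columns, without normalization. The strand setting is not given in the sources used here, so antisense partners cannot be told apart. Of the columns, 22 were matched to samples and 25 were not used. The column names high and low, with their numbers, were read as the 60% and 40% tumors, following the words of the source data of the study. Each tumor is a separate animal. Gene positions came from a GENCODE annotation of GRCm39, in which 56017 genes were found.

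The 18 tumors were fitted together in R 4.3.3 with edgeR 4.0.16 (TMM scaling, filterByExpr, robust quasi-likelihood test, Benjamini-Hochberg adjusted p under 0.1), a threshold from the study's methods, and 16213 genes were tested. Fold changes are 60% minus 40% on the log2 scale, and log2 CPM has a prior count of 2. All tests were two-sided. *mt-Nd5* was also compared over all 3432 splits of the 14 tumors. Gene lists (40 lists, 793 genes, 733 tested) are described by counts and medians only. The members and lists were chosen with earlier results of these data known.

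Some items are not reported here. Named genes are the 12 of smallest p in each direction and the 5 largest changes without overlap in each direction, all called and with a mean of at least 1 log2 CPM, the 2 of smallest p in each list, and genes the study names. Genes outside this rule are either called members of a list or are said to have been looked at after their values were seen, as are those named under other observations.

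The test was checked on simulated counts with known changes. Alternatives were limma-voom (limma 3.58.1), DESeq2 1.42.0, DESeq2's size factors, no filter or at least 10 counts in each tumor, only the 14 tumors, the replicate number as a block, an adjusted p under 0.05, 1 surrogate variable (sva 3.50.0), the pan-leukocyte score as a covariate, and each tumor left out. The muscle score as a covariate was chosen after seeing the data. Same-numbered tumors are different animals and did not deviate together.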

Additional observations from a re-analysis of the deposited data

Results flagged for a closer look

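Of 224 values of a named gene in a group of 7 tumors, 14 had a lowest or highest tumor set apart from the rest. Its gap to the nearest other, divided by the group's range, was above Dixon's 95% critical value of 0.568. Gap and range were taken in log2 CPM, while the levels below are in CPM. Chance flags about 1 in 20 groups, and no explanation was weighed.

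In 40% tumors, 7 of these concern tumor 2. *Nqo1*, an NRF2-induced quinone reductase, was at 149 CPM there and at 4.44 to 7.34 CPM in the others (ratio 0.858). *mt-Nd5* was at 789 CPM against 1086 to 1238 CPM (0.710) and *Stard4*, a sterol carrier, at 97.6 CPM against 42.6 to 54.6 CPM (0.702). *Shmt2*, of mitochondrial serine use, was at 323 CPM against 167 to 204 CPM (0.699), and *Atp5pf*, an ATP synthase subunit, at 114 CPM against 86.2 to 95.0 CPM (0.656). The matrix genes *Lum* and *Col3a1* were the low ones, at 91.2 CPM against 310 to 570 CPM (0.668) and at 4957 CPM against 7386 to 9146 CPM (0.651).

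The other 40% tumors gave 4. *Slc16a3* was at 75.8 CPM in tumor 3 and 38.4 to 49.0 CPM in the others (0.644), *Alox5ap* at 86.4 CPM in tumor 7 and 61.9 to 70.2 CPM (0.623), *C1qtnf12* at 13.1 CPM in tumor 1 and 8.35 to 9.99 CPM (0.601), and *Gfra2*, a receptor of neurturin, at 11.8 CPM in tumor 5 and 16.2 to 19.99 CPM (0.598).

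In 60% tumors, the red-cell genes *Hba-a2* and *Alas2* were highest in tumor 6, at 7.13 CPM against 1.33 to 2.45 CPM (0.642) and at 3.37 CPM against 0.724 to 1.30 CPM (0.630). *C1qtnf12* was lowest in tumor 5, at 3.99 CPM against 5.38 to 6.65 CPM (0.585).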

How the results depend on the processing

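The number of genes past the threshold, 293 (132 higher, 161 lower), was 316 with limma-voom, 302 with DESeq2's size factors, 307 with at least 10 counts in each tumor and 293 with only the 14 tumors. It was 744 with DESeq2 (359 and 385), 178 with no filter (63 higher), 113 at an adjusted p under 0.05 (48 and 65), 740 with 1 surrogate variable (509 higher), 71 with the leukocyte covariate (32 and 39) and 362 with the muscle covariate (229 higher). The share of higher genes among calls was 45.1%, but 68.8% with the surrogate variable, 63.3% with the muscle covariate and 35.4% with no filter. Of the 293 calls, 242 were kept with only the 14 tumors, 185 with the muscle covariate and 32 with the leukocyte covariate. With the replicate number as a block, 266 genes passed, 182 of them among the 293. The numbers do not pair the tumors, since 1 of 7 same-numbered pairs had a correlation of deviations over 0.1 and 1 of 7 tumors correlated best with its own number. Leaving out 1 tumor gave 108 to 452 genes, 48 to 193 higher and 60 to 259 lower. The total moved by over 1.5 times without 60% tumor 1 (108), 2 (132), 4 (125) or 7 (139) and without 40% tumor 1 (137), 4 (452) or 6 (128). No called gene changed sign under these settings. Among named genes that missed the threshold, the log2 fold change turned with the leukocyte covariate for *Gbp4* (−0.22), *Gbp2* (−0.10), *Tapbp* (−0.00076), *Cxcl11* (−0.33), *Cd40* (−0.058), *Nkg7* (−0.11), *Ighm* (−0.20), *Ccr7* (−0.16), *Plin1* (−0.40), *Cfd* (−0.65), *Ptprc* (−0.032), *Cd74* (−0.45), *Hba-a2* (0.30) and *Alas2* (0.31). *Hmox1* turned with the surrogate variable (−0.26), without 60% tumor 2 (−0.068) and with the muscle covariate (−0.34). *S100a9* turned without 40% tumor 3 (0.15) and *Chil3* without 40% tumor 5 (−0.012). *mt-Nd5*, taken as the difference in mean log2 CPM and not as an edgeR fold change, turned without 40% tumor 2 (−0.018). Over all single tumors left out these ran from −0.068 to 0.24, from −0.50 to 0.15, from −0.012 to 0.25 and from −0.018 to 0.090. The cause was not tested. The leukocyte covariate itself rises with leukocyte genes, so it takes out what they share. At these depths, genes near or below 1 CPM, such as *Wnt5b* and *Slc6a2*, rest on few reads per tumor.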

Other observations

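The tumor labelled 40% number 2 stood out by high NRF2 targets. *Slc7a11*, the cystine importer, was at 174 CPM there, at 2.14 to 8.95 CPM in the other 40% tumors and at 4.30 to 9.64 CPM in 60% tumors. *Gclm*, of glutathione synthesis, was at 160 CPM against 29.0 to 39.2 CPM in the other 40% tumors, and *Txnrd1*, thioredoxin reductase, at 880 CPM against 199 to 246 CPM. *Gsta4* and *Cbr3*, which detoxify carbonyls, were at 41.6 CPM against 2.59 to 4.98 CPM and at 36.5 CPM against 3.34 to 4.73 CPM. Of the 15 NRF2 targets 9 were more than 1 log2 unit above the median of the other 6 tumors. Fibroblast genes were low in the same tumor, such as *Fap* at 4.17 CPM and *Lum* at 91.2 CPM.

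The same tumor held a run of neighbouring high genes on chromosome 1, between 105204639 and 106724458 in GRCm39. *Pign* was at 443 CPM against 68.1 to 74.2 CPM in the other 40% tumors (6.22 times their median), *Relch* at 263 CPM against 40.4 to 46.3 CPM, *Zcchc2* at 488 CPM against 73.0 to 89.3 CPM, *Kdsr* at 394 CPM against 51.1 to 55.9 CPM and *Vps4b* at 829 CPM against 102 to 114 CPM. The apoptosis inhibitor *Bcl2*, in the same run, was at 226 CPM against 75.5 to 111 CPM. *Serpinb8*, beyond the run, was at 4.32 CPM, in the range of the others (3.24 to 5.09 CPM). DNA was not measured in this tumor, and the cause of the pattern was not tested.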
